A study of Mus musculus with 39 samples.

Results

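The matrix metalloproteinases measured here were Mmp2, Mmp8, Mmp9, Mmp12, Mmp13, Mmp14 and Mmp19, and the tissue inhibitors of metalloproteinases were Timp1, Timp2 and Timp3. The 10 genes were taken by symbol, and all 10 were found among the 43430 genes of the count table. The study sequenced polyadenylated RNA from sorted lung cells of C57BL/6J mice, young or old, given saline or ISRIB. ISRIB is a small molecule that acts on the translation factor eIF2B and blunts the integrated stress response. There were 39 libraries in 8 groups: 20 of lung monocytes labelled as coming from naive mice, with 5 in each combination of age and treatment, and 19 of Siglec F-low alveolar macrophages from bleomycin-treated mice (bleomycin damages lung tissue, and fibrosis follows). The macrophages comprised 5 young saline, 4 young ISRIB, 5 old saline and 5 old ISRIB libraries. The series text places collection on day 21 after bleomycin and daily ISRIB injections from day 7. It gives ages of 3 to 5 and 18 to 24 months, while the sample labels give 8 to 12 weeks and over 18 months. It also describes both cell types as coming from bleomycin-treated mice, whereas the labels call the monocytes naive. The labels name no transgene or deletion in any group. The gate of the sort, beyond the cell type names, is not given in the sources used here, and the labels do not say that each library is a separate mouse, so p-values measure only the spread between libraries.

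Matrix metalloproteinases are zinc-dependent enzymes that cut collagens, elastin and other proteins outside the cell. They are made as inactive precursors and are opened by other proteases, and the tissue inhibitors of metalloproteinases bind and block the active enzymes. Macrophage elastase, the product of Mmp12, is the best known of them in lung macrophages. The fibrillar collagenases are Mmp8 and Mmp13, the gelatinases are Mmp2 and Mmp9, and Mmp14 is anchored in the membrane, where together with Timp2 it activates the Mmp2 precursor. Which of these genes a recruited macrophage transcribes bears on both scar formation and scar removal.

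Mmp13, Mmp12 and Mmp8 lie within 296.0 kb of mouse chromosome 9 on the plus strand, in a cluster that holds 10 Mmp genes on that chromosome. On GRCm38 (mm10), Mmp13 spans 7272514 to 7283331, Mmp12 spans 7344381 to 7369499 and Mmp8 spans 7558456 to 7568485. Mmp2 lies on chromosome 8 (92827291 to 92853420), Mmp9 on chromosome 2 (164940780 to 164955850), Mmp14 on chromosome 14 (54431612 to 54445364) and Mmp19 on chromosome 10 (128790910 to 128800824), all on the plus strand. Timp1 lies on chromosome X (20870166 to 20874735), Timp2 on the minus strand of chromosome 11 (118301069 to 118355740) and Timp3 on chromosome 10 (86300372 to 86349506). All 10 are protein-coding, and the values are reads counted per gene. From first to last base, introns included, 5 members overlap another gene. Mmp12 overlaps Mmp1b, Mmp19 overlaps Tmem198b, Timp1 overlaps Syn1, Timp2 overlaps Cep295nl and Timp3 overlaps Syn3. All of these except Cep295nl lie on the opposite strand. Whether exons overlap was not examined. The strand setting of the counting is not given in the sources used here, so how reads in any shared exon were assigned is not known. Over all libraries Mmp1b had 11 counts against 168863 of Mmp12, whereas Syn1 had 4114 counts against 1048 of Timp1 and Syn3 had 166 against 99 of Timp3.

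The promoter windows of the chromosome 9 members are shown because these neighbours differed in opposite directions between the cell types. RefSeq sequences on GRCm38.p6, from 250 bases before to 50 after each start site, were at hand for 7 of the 10 members. Capitals mark matches to the AP-1 motif TGANTCA, searched on both strands, which 7.81% of 32851 mouse promoter windows of this length hold. Mmp12 has windows for 2 start sites, and the capitals fall in the downstream one. The coordinates in the order printed are chr9:7272264-7272563, chr9:7344147-7344446, chr9:7347124-7347423 and chr9:7558179-7558478, all plus strand.
Mmp13: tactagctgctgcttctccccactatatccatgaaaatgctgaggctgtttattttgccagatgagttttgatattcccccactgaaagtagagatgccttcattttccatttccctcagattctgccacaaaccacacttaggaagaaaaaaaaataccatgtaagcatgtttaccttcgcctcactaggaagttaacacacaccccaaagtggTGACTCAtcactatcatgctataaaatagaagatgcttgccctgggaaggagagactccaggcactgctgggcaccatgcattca
Mmp12 upstream start: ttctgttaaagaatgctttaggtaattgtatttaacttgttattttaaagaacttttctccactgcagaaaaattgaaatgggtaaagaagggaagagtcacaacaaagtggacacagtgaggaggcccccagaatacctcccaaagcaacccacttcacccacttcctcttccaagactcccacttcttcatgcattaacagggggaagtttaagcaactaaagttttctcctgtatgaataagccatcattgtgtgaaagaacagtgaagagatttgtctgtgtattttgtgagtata
Mmp12 downstream start: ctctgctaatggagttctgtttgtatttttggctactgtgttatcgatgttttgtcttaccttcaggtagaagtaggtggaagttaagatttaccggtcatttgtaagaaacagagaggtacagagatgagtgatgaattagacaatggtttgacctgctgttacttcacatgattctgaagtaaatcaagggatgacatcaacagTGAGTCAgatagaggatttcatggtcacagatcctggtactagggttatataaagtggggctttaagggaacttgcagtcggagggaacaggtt
Mmp8: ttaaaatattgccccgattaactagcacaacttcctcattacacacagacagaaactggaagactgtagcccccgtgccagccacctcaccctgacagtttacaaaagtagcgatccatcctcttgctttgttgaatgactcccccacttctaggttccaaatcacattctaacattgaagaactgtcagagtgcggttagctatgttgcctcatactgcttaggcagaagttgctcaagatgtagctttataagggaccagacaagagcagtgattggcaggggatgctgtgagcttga
The AP-1 match begins 35 bases before the Mmp13 start and 44 bases before the downstream Mmp12 start, and none is present in the other 6 windows. The other motifs were also searched on both strands. The ETS motif AGGAAGT, held by 9.35% of windows, matched in those of Mmp8, Mmp13 and Timp1 and in the upstream Mmp12 window. In Mmp8 and the upstream Mmp12 window it lies on the opposite strand and reads ACTTCCT as printed. The letters TATAAA, held by 13.6%, matched in Mmp8, Mmp13 and the downstream Mmp12 window. In Mmp8 this match lies on the opposite strand and reads TTTATA as printed. The letters TGATGNAA, a motif of ATF4 held by 3.97% of windows, matched in none of the 8. These matches describe the letters in the windows and nothing more.

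The smallest library held 4595331 counts and the largest 16056708, and the median was 8628240. Levels are given as CPM, counts scaled to a library total of 1000000, and as CPM per kilobase of exon where genes are compared with each other. A count of 0 allows a level of up to 0.187 to 0.653 CPM, the worth of 3 counts in the deepest and the shallowest library, covering counting error only. The macrophage libraries carried their defining genes: Mrc1 averaged 1311 CPM and C1qa 1030.4 CPM in young saline macrophages, against 31.8 and 1.23 CPM in young saline monocytes. The monocytes carried theirs, with Ly6c2 at 561 CPM and Ccr2 at 1748 CPM in young saline libraries. Ly6g, which marks neutrophils, was at 0 in all 4 macrophage groups and at most 0.189 CPM on average in a monocyte group. The fibroblast list of 15 genes summed to 1.29 to 40.5 CPM in macrophage libraries and to 138 to 214 CPM in monocyte libraries. Of these genes, 1 to 4 were at 0 in a macrophage group and 4 to 9 in a monocyte group. The genes that carry the sums are not named here. The 9 B and plasma cell genes summed to 138 to 310 CPM in monocyte libraries, and the 10 endothelial genes to 116 to 263 CPM in macrophage libraries and 14.7 to 52.6 CPM in monocyte libraries. The part of these lists in the differences between cell types was not tested. In bulk RNA such as this, fewer cells of a type and less RNA per cell cannot be told apart.

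Siglec F-low macrophages expressed a set of Timp2, Mmp19, Mmp12 and Mmp14, while monocytes expressed mainly Mmp8, Mmp19 and Timp2. In young saline macrophages Timp2 stood at 160 ± 9.38, Mmp19 at 158 ± 40.3, Mmp12 at 137 ± 20.8 and Mmp14 at 56.9 ± 6.65 CPM per kilobase (SD, n = 5). The ranges of Timp2, Mmp19 and Mmp12 overlapped between neighbours in that order, and Mmp14 lay below all of them. Mmp8 followed at 17.9 ± 4.73 and Timp1 at 10.2 ± 2.17 CPM per kilobase. Mmp2 at 2.61 ± 0.803 and Mmp13 at 2.38 ± 0.778 overlapped each other, and Mmp9 at 0.270 ± 0.224 and Timp3 at 0.0468 ± 0.0468 CPM per kilobase came last. In young saline monocytes the order began with Mmp8 at 75.1 ± 48.6, Mmp19 at 16.8 ± 7.17 and Timp2 at 13.8 ± 2.29 CPM per kilobase. The library ranges of Mmp19 and Timp2 overlapped, and each of the other 7 members averaged at most 0.438 CPM per kilobase.

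**Figure D1:**
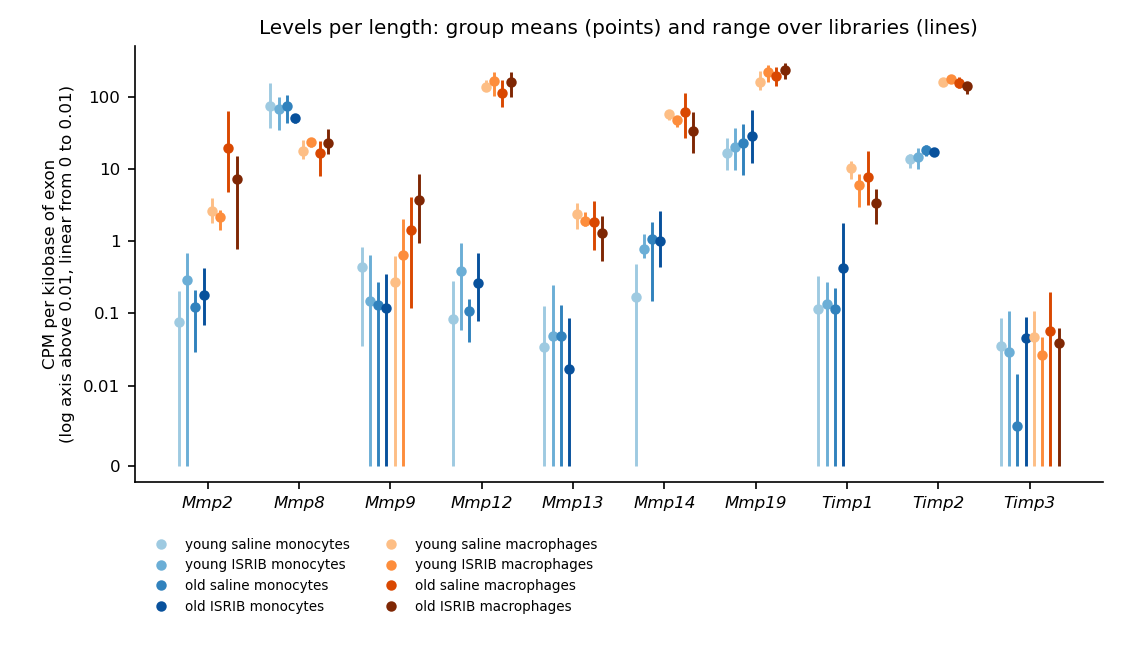
Level per length of the 10 members in the 8 groups, as CPM per kilobase of exon on an axis that is logarithmic above 0.01. Points are group means and lines run from the lowest to the highest library. Timp2, Mmp19 and Mmp12 lead in the macrophage groups, where Timp2 averaged 140 to 174 CPM per kilobase, and Mmp8 leads in the monocyte groups.

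The summed level of the 7 metalloproteinases averaged 376 ± 30.8 CPM per kilobase in young saline macrophages, 459 ± 89.98 in young ISRIB, 408 ± 73.0 in old saline and 457 ± 87.8 in old ISRIB macrophages (SD). Mmp12 made up 26.9% to 36.8% of that sum on average. The sum of the inhibitors, of which Timp2 was 94.0% to 97.7%, averaged 170 ± 10.7, 180 ± 17.3, 160 ± 22.2 and 143 ± 22.3 CPM per kilobase in the same order. The ratio of inhibitor to metalloproteinase transcripts per length was 0.454 ± 0.0397 in young saline, 0.401 ± 0.0669 in young ISRIB, 0.398 ± 0.0557 in old saline and 0.318 ± 0.0489 in old ISRIB macrophages. These sums are descriptions of RNA, without a test, and say nothing of active enzyme.

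The first comparison asked how the macrophages of injured lung differ from monocytes. Cell type and bleomycin go together in the labels, so their contributions cannot be told apart. In young saline mice 8 of the 9 members tested passed an adjusted p of 0.05 (edgeR quasi-likelihood test), 7 higher and 1 lower in macrophages, with a median log2 fold change of 4.87 over the 9. Over all 13587 genes tested 60.0% passed, 31% higher and 29% lower, with a median of 0.01. In old saline mice 9 of 9 passed, 8 higher and 1 lower, with a median of 5.21, beside 57.0% of all genes, 29.7% higher and 27.3% lower. Timp3 was too low to be tested, with 99 counts over the 39 libraries and 13 libraries at 0.

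Mmp12, the elastase, was the member with the widest gap between the cell types. Young saline monocytes held 0.883, 0.111, 0, 0 and 2.00 CPM in replicates 1 to 5, and young saline macrophages held 1032, 1235, 892, 950 and 859 CPM. The fitted log2 fold change was 10.60 ± 0.56 (SE, adjusted p = 2.25e-19) in young and 10.09 ± 0.53 (adjusted p = 3.22e-19) in old saline mice. The collagenase Mmp13 was at 0 in 3 of 5 young saline monocyte libraries and at 6.36 ± 2.08 CPM (SD, n = 5) in the macrophages, a log2 fold change of 5.86 ± 0.85 (adjusted p = 1.76e-07). Mmp13 therefore separated the cell types fully although it never passed 9.62 CPM in a macrophage library. Mmp8, the collagenase first known from neutrophils, ran the other way: monocytes held 205, 125, 88.4, 114 and 378 CPM and macrophages 43.5, 33.7, 61.5, 33.4 and 45.5 CPM. All 5 monocyte libraries lay above all 5 macrophage libraries, and the log2 fold change was -2.03 ± 0.33 (adjusted p = 1.48e-06) in young and -1.999 ± 0.33 (adjusted p = 1.94e-06) in old mice. In the monocytes with this Mmp8, the neutrophil list of 15 genes summed to 395 to 482 CPM in young saline libraries, of which Csf3r alone averaged 430 CPM, while Camp averaged 0.0981 and Ltf 0.446 CPM.

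Among the gelatinases and their activator, Mmp2 and Mmp14 were higher in macrophages at both ages. Mmp14 held 0.392, 2.88, 1.27, 0 and 0.500 CPM in young saline monocytes and 340, 390, 334, 280 and 351 CPM in young saline macrophages. The log2 fold change of Mmp14 was 8.28 ± 0.58 in young mice (adjusted p = 1.26e-15) and 6.03 ± 0.48 in old mice (adjusted p = 5.54e-14). Mmp2 rose from 0.253 ± 0.260 to 8.79 ± 2.71 CPM (SD, n = 5 each) in young saline mice, a log2 fold change of 4.87 ± 0.86 (adjusted p = 6.75e-06), and by 7.49 ± 0.80 in old saline mice (adjusted p = 1.57e-10), or 6.30 without old saline macrophage replicate 4. Mmp9 was the exception, with 2.94, 0.776, 1.51, 2.39 and 0.125 CPM in young saline monocytes and 0, 0.646, 1.08, 2.18 and 0.872 CPM in young saline macrophages. These groups overlapped, and the log2 fold change of -0.66 (95% interval -2.68 to 1.37, adjusted p = 0.585) did not pass. In old saline mice Mmp9 passed at 3.44 ± 1.03 (adjusted p = 0.00447), from 0.466 ± 0.447 CPM in monocytes to 5.10 ± 5.78 CPM in macrophages, and at 2.601 without old saline macrophage replicate 3 (adjusted p = 0.0339).

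Mmp19, which cuts basement membrane proteins, rose from 59.2 ± 25.3 to 559 ± 143 CPM in young saline mice (SD, n = 5 each), a log2 fold change of 3.26 ± 0.43 (adjusted p = 2.17e-08). Of the inhibitors, Timp2 had the smallest error: 49.5, 54.7, 61.6, 62.0 and 40.7 CPM in young saline monocytes against 626, 575, 597, 656 and 659 CPM in young saline macrophages. Its log2 fold change was 3.58 ± 0.16 (adjusted p = 7.59e-22) in young and 3.20 ± 0.15 (adjusted p = 1.20e-20) in old mice. Timp1, an inducible inhibitor, was at 0 in 3 of 5 young saline monocyte libraries and between 6.45 and 11.3 CPM in the macrophages, a log2 fold change of 6.09 ± 0.84 (adjusted p = 6.90e-08). Near 0 in monocytes, single libraries moved some sizes but no call: without young saline monocyte replicate 1 the change was 6.88 for Timp1 and 5.68 for Mmp2, without replicate 2 it was 9.14 for Mmp14 and 7.13 for Mmp13, and without replicate 5 it was 11.62 for Mmp12. In old mice it was 5.84 for Mmp13 without old saline monocyte replicate 3. Apart from Mmp9 and the untested Timp3, no member's macrophage and monocyte libraries overlapped, in young or in old saline mice. How many of all genes are without overlap was not counted, and 60.0% and 57.0% of all genes passed between the cell types in young and old saline mice.

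**Figure D2:**
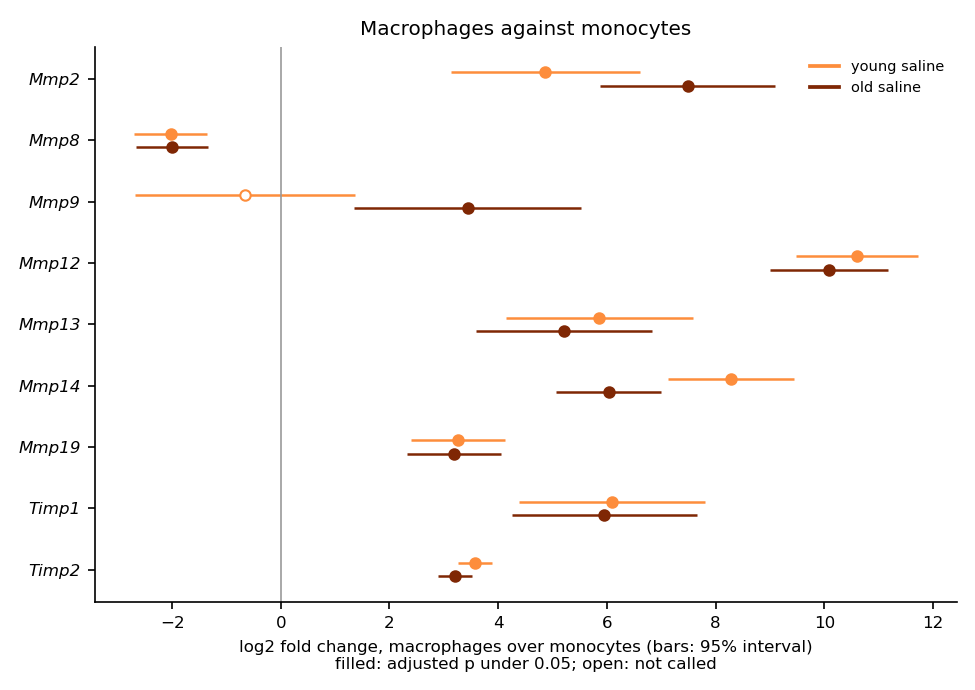
Log2 fold change of 9 members, Siglec F-low macrophages over lung monocytes, in young saline (light) and old saline (dark) mice, with 95% intervals. Filled points passed an adjusted p of 0.05. Mmp12 lies farthest right at 10.60 and 10.09, Mmp8 is the only member on the left at both ages, and Mmp9 passed in old mice alone.

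Whether the age effect itself differed between the cell types was tested as an interaction in saline-treated mice. None of the 9 members passed in edgeR, against 0.250% of all genes, and none passed in DESeq2 or limma voom. At an unadjusted p under 0.05 there were 2 of 9, beside 1484 of all 13587 genes. These were Mmp9, whose old-minus-young log2 difference was 4.10 ± 1.43 greater in macrophages (adjusted p = 0.241), and Mmp14, whose difference was -2.25 ± 0.75 (adjusted p = 0.208). The change of Mmp9 with age is thus not shown to differ between macrophages and monocytes.

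The second comparison asked how macrophages of old mice differ from those of young mice. Among saline-treated mice 1 of 9 members passed, Mmp2, which was higher in old macrophages, against 1.16% of 12171 genes called and 0.937% called higher. Young saline macrophages held 8.90, 13.2, 7.17, 6.10 and 8.59 CPM of Mmp2 and old saline macrophages 34.9, 46.4, 16.3, 211 and 21.7 CPM. The groups did not overlap, and within the old group replicate 4 stood far above the others. The log2 fold change was 2.97 ± 0.62 (adjusted p = 0.0163). Without old saline replicate 4 it was 1.79 (adjusted p = 0.0723), without young saline replicate 3 it was 2.90 (adjusted p = 0.0526) and without young saline replicate 4 it was 2.87 (adjusted p = 0.0626), so the call rests on each of these libraries. In limma voom it did not pass (adjusted p = 0.188). The fibroblast list summed to 3.97 CPM in old saline replicate 4, near the lowest of its group, whose libraries ran from 3.76 to 13.2 CPM. The part of other cells in the Mmp2 value of that library was not tested.

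Among ISRIB-treated mice 0 of 9 members passed in edgeR, DESeq2 and limma voom, against 0.937% of all genes. At an unadjusted p under 0.05 there were 3 of 9, beside 12.2% of all genes: Mmp2 with a log2 fold change of 1.75 ± 0.68 (adjusted p = 0.257), Mmp9 with 2.40 ± 0.85 (adjusted p = 0.2001) and Timp2 with -0.32 ± 0.12 (adjusted p = 0.228). Old ISRIB macrophages held 18.9, 10.8, 2.62, 51.0 and 38.8 CPM of Mmp2 against 7.13, 9.19, 4.82 and 7.80 CPM in young ISRIB macrophages. Replicate 3 of the old group lay below all 4 young libraries, so the groups overlapped.

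Averaged over saline and ISRIB, the age effect passed for 2 of 9 members, both higher in old macrophages and both gelatinases, beside 4.86% of all genes and 3.12% higher. The averaged log2 fold change of Mmp2 was 2.36 ± 0.46 (adjusted p = 0.00282), and it was 1.77 (adjusted p = 0.00324) without old saline replicate 4. Mmp9 held 0.418, 2.71, 14.4, 1.06 and 6.93 CPM in old saline and 8.59, 12.5, 29.9, 3.28 and 10.98 CPM in old ISRIB macrophages. In young macrophages it ran from 0 to 2.18 CPM with saline and held 1.54, 7.17, 0 and 0.459 CPM with ISRIB. The averaged log2 fold change of Mmp9 was 2.41 ± 0.61 (adjusted p = 0.0191), and it was 1.99 (adjusted p = 0.0551) without old saline replicate 3 and 3.26 without young ISRIB replicate 2. In limma voom neither passed, at an adjusted p of 0.149 for Mmp2 and 0.102 for Mmp9. The other 7 members tested had averaged log2 changes from -0.56 for Timp1 to 0.20 for Mmp19 and none passed. For Mmp12 the interval ran from -0.51 to 0.20 and for Mmp8 from -0.42 to 0.30.

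Summed levels of several marker lists differed with age or treatment in the macrophage libraries, and not all lists are given here. The nonclassical monocyte list of 7 genes was lower with age under saline. It summed to 473 to 632 CPM in young saline and 281 to 419 CPM in old saline macrophages. The neutrophil list summed to 47.9 to 63.4 CPM in young saline and 65.6 to 107 CPM in old saline macrophages, with Ly6g at 0 in both. The list of 9 B and plasma cell genes summed to 6.97 to 29.3 CPM in young saline and 21.7 to 415 CPM in old saline macrophages. Medians of the next lists are given for young saline, young ISRIB, old saline and old ISRIB macrophages, in that order. The mature alveolar macrophage list of 12 genes had medians of 5921, 6751, 8389 and 12343 CPM. The classical monocyte list of 8 genes had medians of 4476, 5339, 6794 and 9807 CPM. The 11 T and NK cell genes had medians of 6.43, 9.87, 16.8 and 30.6 CPM. The 5 mesothelial genes had medians of 36.6, 48.0, 40.1 and 103 CPM. They summed to 198 and 106 CPM in old saline replicates 3 and 5, the old saline libraries highest in Mmp9. Of these 5 genes, 4 were at 0 in both young macrophage groups and 3 in both old groups. Krt19, which is on that list, averaged 70.8 CPM over the 19 macrophage libraries. Old ISRIB replicate 3 had the highest sums of the mature alveolar macrophage (15279 CPM), classical monocyte (12192 CPM), B and plasma cell (597 CPM), T and NK cell (40.5 CPM), dendritic cell (36.2 CPM) and interstitial macrophage (209 CPM) lists, together with the lowest Mmp2 and Mmp14 and the highest Mmp9 of the 19 macrophage libraries. The classical monocyte list shares Chil3 with the mature alveolar macrophage list and F13a1 with the interstitial macrophage list, so these sums are not independent. Vcan, of the classical monocyte list, went the other way. Averaged over treatments it was lower in old macrophages at a log2 fold change of -1.58 (edgeR, adjusted p = 0.0404). The part of these lists in the results on Mmp2, Mmp9 and Mmp14 was not tested.

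**Figure D3:**
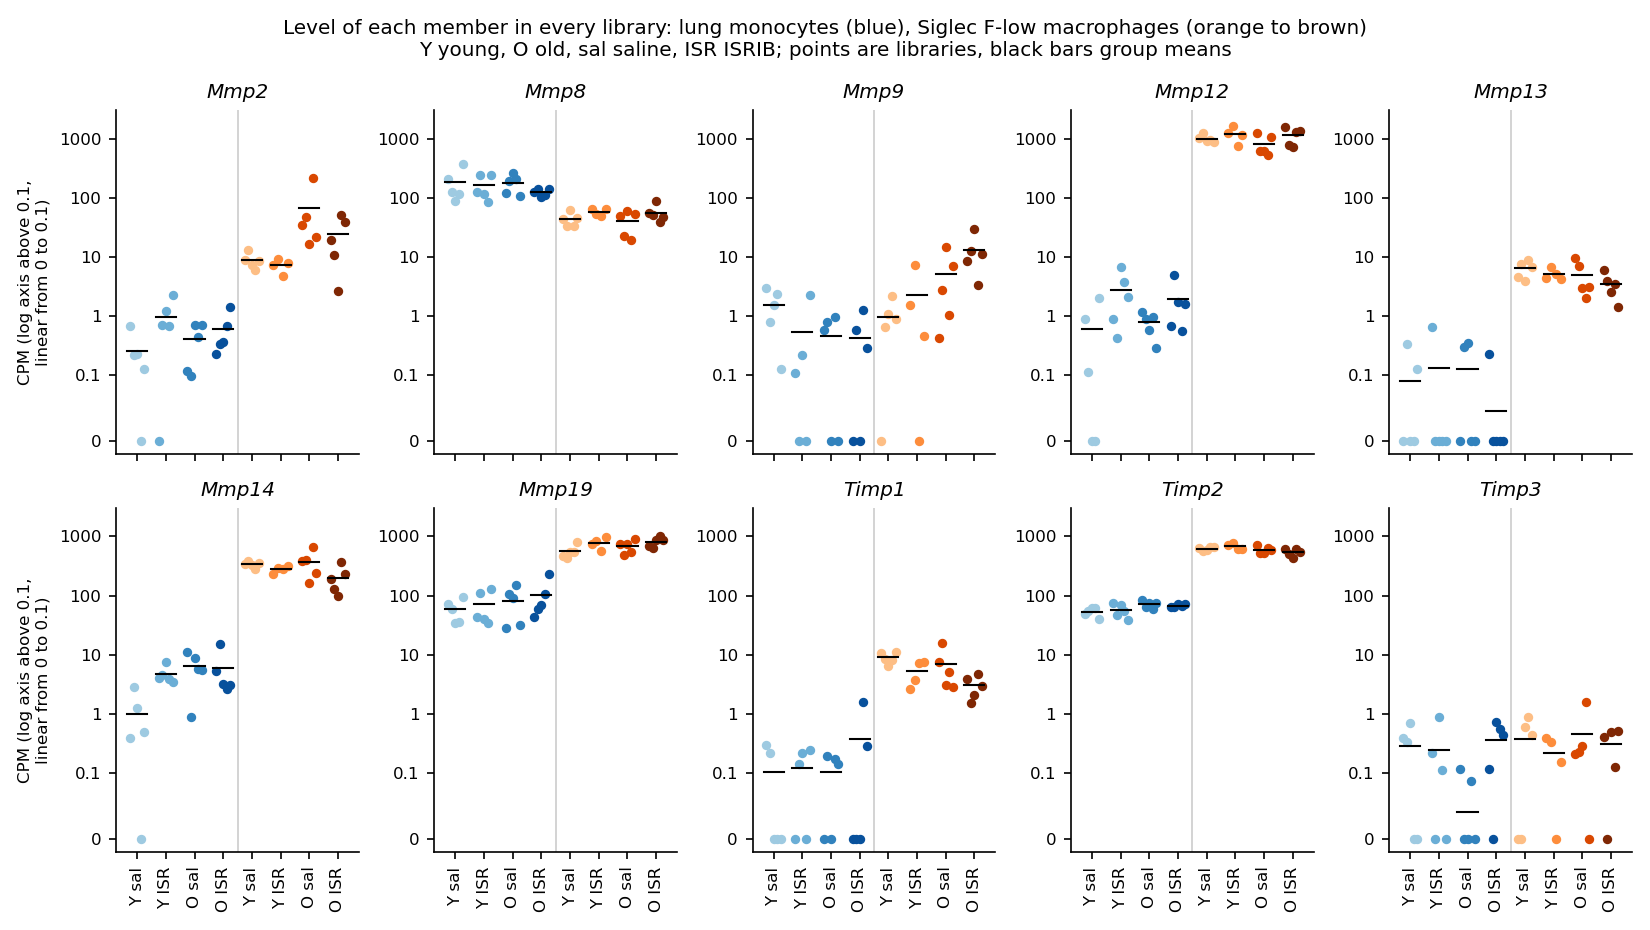
Level of each of the 10 members in all 39 libraries, in CPM on an axis that is logarithmic above 0.1. Points are libraries, black bars are group means, blue groups are monocytes and orange to brown groups are macrophages. Mmp2 reaches 211 CPM in 1 old saline macrophage library, and Timp3 stays at or below 1.59 CPM in every library.

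The third comparison asked what ISRIB changed in macrophages. In old mice 0 of 9 members passed in edgeR, DESeq2 and limma voom, as did 0% of all genes in edgeR, and 3 of 9 had an unadjusted p under 0.05 beside 9.14% of all genes. These were Mmp14 with a log2 fold change of -0.90 ± 0.30 (adjusted p = 0.371), Timp1 with -1.20 ± 0.42 (adjusted p = 0.406) and Mmp2 with -1.45 ± 0.57 (adjusted p = 0.462). Mmp14 held 389, 393, 162, 674 and 238 CPM in old saline and 188, 128, 97.6, 365 and 230 CPM in old ISRIB macrophages, and the groups overlapped. Without old saline replicate 4, the library highest in both genes, the change was -0.55 for Mmp14 and -0.28 for Mmp2. In young mice 0 of 9 passed in the same tests, as did 0% of all genes in edgeR, and 1 had an unadjusted p under 0.05 beside 12.4% of all genes, Mmp19 with 0.51 ± 0.18 (adjusted p = 0.239).

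Averaged over both ages, 0 of 9 members passed in edgeR, against 0.830% of all genes, while 6 of 9 had an unadjusted p under 0.05, against 16.6% of all genes. DESeq2 called 1, Timp1, and limma voom called 0. Timp1 had the smallest p: it held 10.5, 8.53, 6.45, 8.27 and 11.3 CPM in young saline, 2.602, 3.70, 7.15 and 7.64 in young ISRIB, 7.64, 15.8, 3.10, 5.15 and 2.85 in old saline and 3.83, 1.52, 2.12, 4.67 and 2.97 CPM in old ISRIB macrophages. ISRIB and saline libraries overlapped at both ages. The averaged log2 fold change of Timp1 was -0.98 ± 0.31 (adjusted p = 0.09998, and 0.0361 in DESeq2). The others under 0.05 unadjusted were Mmp14 at -0.57 ± 0.22, Mmp19 at 0.37 ± 0.13, Mmp8 at 0.43 ± 0.17, Mmp12 at 0.38 ± 0.17 and Mmp9 at 1.34 ± 0.59, with adjusted p-values from 0.127 to 0.264. Timp2, the most abundant inhibitor, had a log2 difference of 0.0025 (95% interval -0.17 to 0.17).

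The interaction of ISRIB with age passed for 0 of 9 members in edgeR, DESeq2 and limma voom, for 0% of all genes in edgeR, and for 0 members, beside 621 of 12171 genes, at an unadjusted p under 0.05. Its interval for Mmp2 was -3.07 to 0.64 and for Mmp14 -1.54 to 0.24. The estimates of -1.22 for Mmp2 and -0.65 for Mmp14 became -0.036 and -0.30 without old saline replicate 4. An ISRIB effect that differs between ages is therefore not shown for any member, and these libraries would not resolve small differences in Mmp2.

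**Figure D4:**
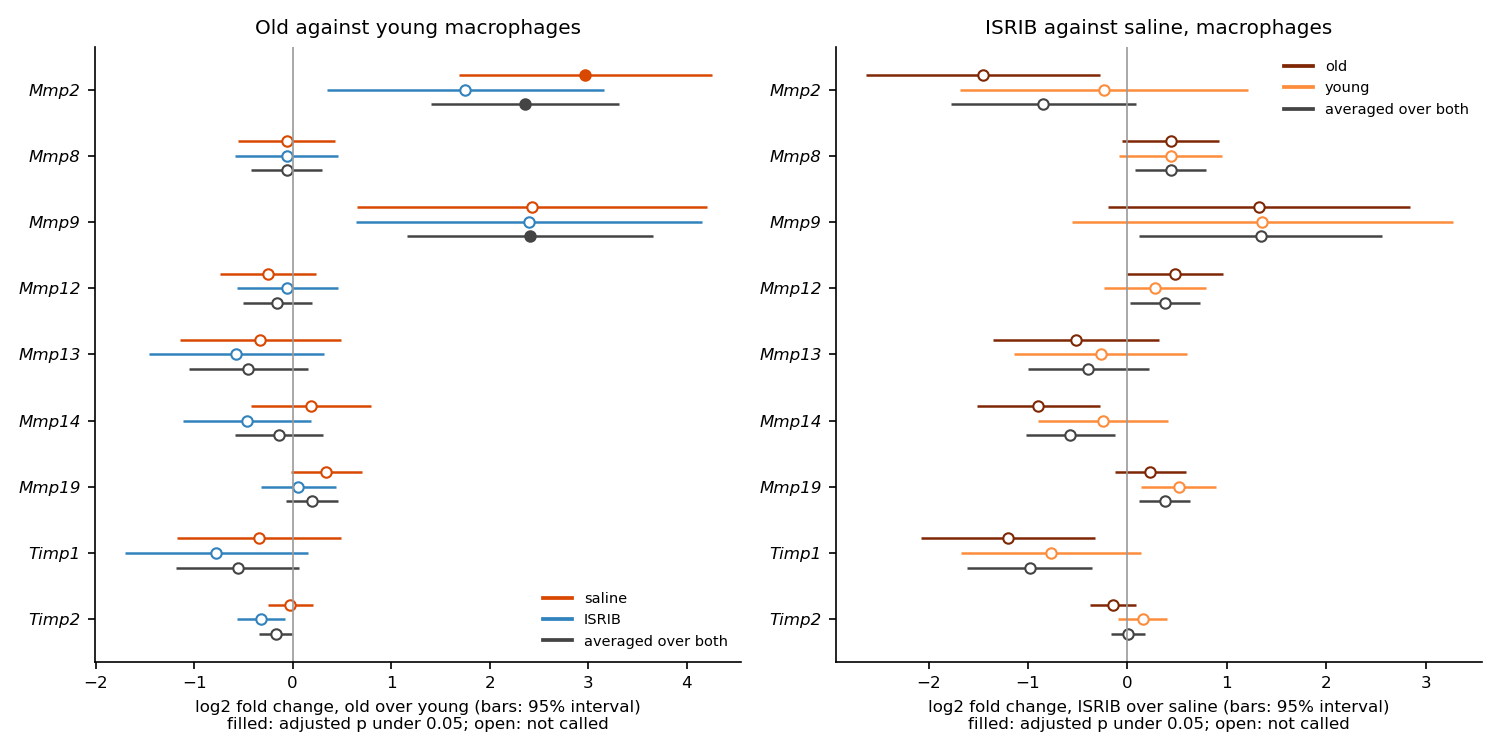
Log2 fold changes in macrophages for 9 members, old over young (left) and ISRIB over saline (right), with 95% intervals. Filled points passed an adjusted p of 0.05. Only Mmp2 (saline, 2.97, and averaged, 2.36) and Mmp9 (averaged, 2.41) are filled, and no point is filled on the right.

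Naive lung monocytes were compared in the same way, with 6 of the 10 members above the filter on low counts. Mmp2, Mmp13, Timp1 and Timp3 were too low, Mmp2 averaging 0.253 to 0.977 CPM over the 4 monocyte groups. In edgeR 0 of 6 members passed in any of the 7 monocyte contrasts. Over all genes 0.0247% passed for age with saline, 0.123% for age averaged over treatments, and 0% for age with ISRIB, for ISRIB in old mice, in young mice and averaged over both, and for the interaction. At an unadjusted p under 0.05 there were 2 members for age with saline, 2 for age averaged, 2 for ISRIB in young mice, 2 for ISRIB averaged, 1 for the interaction and 0 for the other contrasts. Of all 12170 genes, 1072, 1003, 809, 911 and 865 did so in the same order. In the other contrasts 803 did so for age with ISRIB and 918 for ISRIB in old mice. DESeq2 called 1 member in these contrasts and limma voom called 0.

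That 1 member was Mmp14, the member with the smallest p in monocytes. It held 0.392, 2.88, 1.27, 0 and 0.500 CPM in young saline, 4.04, 4.55, 7.51, 3.84 and 3.51 in young ISRIB, 11.01, 0.883, 8.63, 5.79 and 5.57 in old saline and 5.28, 15.4, 3.16, 2.58 and 3.03 CPM in old ISRIB monocytes. All 5 young ISRIB libraries lay above all 5 young saline libraries, while old and young saline libraries overlapped through replicate 2 of the old group. The log2 fold change with age under saline was 2.52 ± 0.66 (adjusted p = 0.232, and 0.0172 in DESeq2), and with ISRIB in young mice it was 2.10 ± 0.66 (adjusted p = 0.645). Mmp12 had a log2 change of 2.09 ± 0.86 with ISRIB in young monocytes (adjusted p = 0.703), at levels of 6.75 CPM or less. Timp2 in monocytes had an averaged age difference of 0.33 ± 0.11 (adjusted p = 0.367), from 53.7 ± 8.93 CPM in young saline to 71.2 ± 10.3 CPM in old saline libraries (SD, n = 5).

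The members also varied among themselves from library to library. Deviations of log2 CPM from the group mean were correlated for 36 pairs in the 19 macrophage libraries and 15 pairs in the 20 monocyte libraries, with 100000 permutations within groups and Benjamini-Hochberg adjustment over the 51 pairs. In macrophages 4 pairs passed. How many pairs of other genes would pass was not counted in either cell type. Mmp2 and Mmp14 moved together, with r = 0.92 (permutation p = 1e-04, adjusted p = 0.00255) and rho = 0.86 (permutation p = 0.00032, adjusted p = 0.00816). Without the 2 libraries farthest from the median of Mmp2 the r was 0.88. Such values were not particular to this pair. Lpcat2 was nearer to Mmp2, at r = 0.94. The 10 genes nearest to Mmp14 had r from 0.92 to 0.95, and Mmp2 was not among them. Mmp2 and Mmp8 moved against each other (r = -0.76, rho = -0.66, adjusted permutation p = 0.0167 for r and 0.0683 for rho), as did Mmp8 and Mmp14 (r = -0.73, rho = -0.64, adjusted permutation p = 0.0489 and 0.108). Mmp9 and Mmp14 also moved oppositely (r = -0.62, rho = -0.64, adjusted permutation p = 0.0422 and 0.0519). Without the 2 farthest libraries these were -0.59, -0.65 and -0.77.

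In monocytes 3 pairs passed: Mmp8 with Mmp19 at r = 0.75 and rho = 0.82 (adjusted permutation p = 0.00255 and 0.00204), Mmp8 with Timp2 at r = -0.72 and rho = -0.74 (0.0489 and 0.0519) and Mmp19 with Timp2 at r = -0.62 and rho = -0.59 (0.0489 and 0.0901). Without the 2 farthest libraries these were 0.77, -0.64 and -0.71. The Mmp8 library of 378 CPM, young saline replicate 5, held 94.4 CPM of Mmp19, the highest of its group, and 40.7 CPM of Timp2, the lowest of its group. That library also had the highest classical monocyte sum of the monocyte libraries, 13649 CPM, and the lowest nonclassical monocyte sum, 666 CPM. Young ISRIB replicates 2 and 5, with 244 and 241 CPM of Mmp8, had classical sums of 11617 and 12931 CPM and nonclassical sums of 1354 and 1182 CPM, against group medians of 8632 and 2393 CPM. Old saline replicates 3 and 4 held 258 and 210 CPM of Mmp8, and their list sums are not given here. The part of these lists in the 3 relations was not tested. Libraries share depth and cell composition, so these relations are between libraries and not between molecules.

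**Figure D5:**
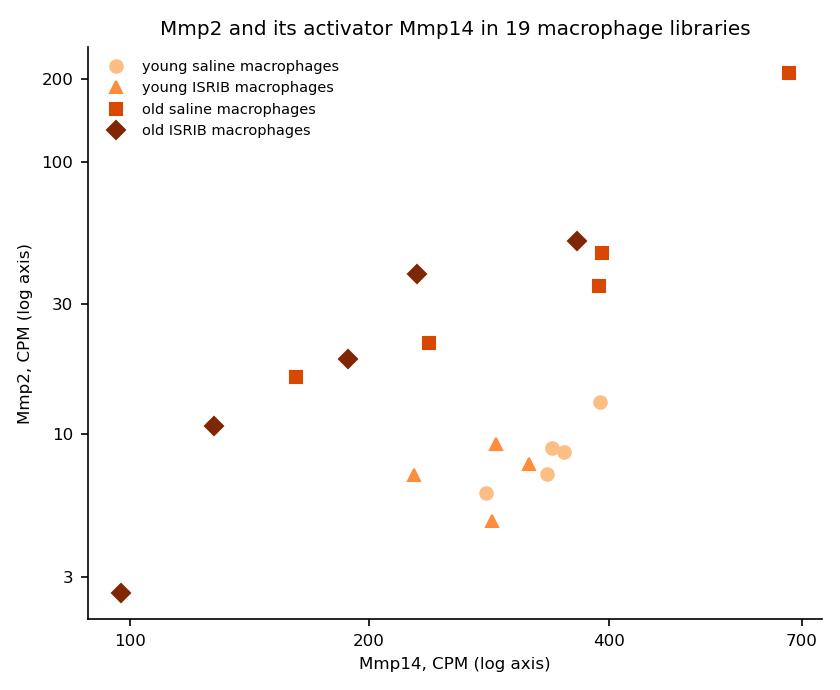
Mmp2 against Mmp14 in the 19 macrophage libraries, both in CPM on logarithmic axes, with a symbol for each group. The old libraries rise from lower left to upper right, and they lie above the young ones over the Mmp14 levels that both ages cover. The library at 211 CPM of Mmp2 and 674 CPM of Mmp14 is old saline replicate 4.

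The genes most like each member over the 19 macrophage libraries, by the r of within-group deviations among 9586 genes (9587 for Mmp13) averaging at least 5 CPM, were as follows. For Mmp2 they were Lpcat2 (0.94), Mmp14 (0.92) and Rnf149 (0.90), and for Mmp14 they were Nrp2 (0.95), Esd (0.94) and Hp (0.94). For Mmp12 they included Tent5c (0.91) and Il7r (0.90), and for Timp2 they were Slc29a3 (0.91), Tns3 (0.90) and Chst11 (0.88). Mmp9 was nearest to Egr2 (0.90), Pithd1 (0.87) and Midn (0.83), and Mmp8 to Trim39 (0.86), Rab6b (0.85) and Unc13a (0.83). Mmp13 was nearest to Emp1 (0.86), Itga6 (0.83) and Fcrls (0.74), Mmp19 to Iqsec1 (0.86), Zfp180 (0.82) and Micall1 (0.81), and Timp1 to Swi5, Adam10 and BE692007 (each 0.85). These are descriptions, since the nearest of many genes is high by selection.

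Other metalloproteinases were nearly silent. Of 17 further genes, the remaining Mmp genes and Timp4, 3 passed the filter on low counts in the fit of both cell types. None of the 17 averaged above 3.44 CPM in a group, the level of Mmp28 in young saline monocytes, and Mmp7, Mmp1a, Mmp20 and Timp4 averaged 0 CPM in all groups. In young saline mice Mmp25 was higher in macrophages (3.32, adjusted p = 0.00663) and Mmp28 lower (-2.67, adjusted p = 0.00922), both at low levels.

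The lists of proteases and other proteins that act beside the metalloproteinases were compared in the same way. Of 14 activators and regulators tested of 20, 6 were higher and 5 lower in young saline macrophages than in monocytes, with a median of 0.25, and 5 were higher and 5 lower in old mice. Plau, the urokinase that opens the plasmin cascade, averaged 93.1 ± 16 CPM in young saline macrophages against 2.66 CPM in monocytes, a log2 fold change of 5.09 (adjusted p = 8.04e-14). Thbs1, the matricellular protein thrombospondin, was lower at -5.64 (adjusted p = 1.69e-09). Of 17 cathepsins and cystatins tested of 21, 13 were higher and 3 lower in macrophages at each age. Ctsk, a collagen-degrading lysosomal protease, averaged 522 CPM against 0.889 CPM in young saline mice, a log2 fold change of 9.32 (adjusted p = 2.48e-23).

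Of 10 ADAM and ADAMTS proteinases tested of 15, 6 were higher and 2 lower in young saline macrophages, and 6 higher and 3 lower in old ones. In either direction 60.0% of all genes were called in young and 57.0% in old saline mice. Adamts2, which trims procollagen, averaged 14.2 CPM in young saline macrophages and 0 CPM in monocytes. Of 5 collagen uptake receptors tested of 8, 4 were higher and 1 lower at each age, led by the mannose receptor Mrc1 at 5.41 (adjusted p = 1.03e-18) in young saline mice, with Ddr1 the lower one at -4.20 (adjusted p = 1.33e-06). Of 14 matrix substrates tested of 19, 8 were higher and 2 lower in young saline mice, and 10 higher and 1 lower in old ones. Spp1, osteopontin, a protein that several metalloproteinases cut, averaged 12259 CPM in young saline macrophages against 1.49 CPM in monocytes.

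With age, the type IV collagen genes Col4a1 and Col4a2 were higher in the macrophages. Type IV collagen is among the classic substrates of the gelatinases, but any link of its genes to Mmp2 or Mmp9 was not tested. Col4a1 averaged 4.51 CPM in young saline and 13.5 CPM in old saline macrophages, a log2 fold change of 1.65 (adjusted p = 0.0128), and Col4a2 averaged 3.85 and 18.1 CPM, a change of 2.27 (adjusted p = 0.00186). Under ISRIB the changes were 3.09 (adjusted p = 3.57e-05) for Col4a1 and 3.53 (adjusted p = 2.33e-05) for Col4a2. Under saline, the age effect of both genes differed from that in monocytes, by 2.50 for Col4a1 (adjusted p = 0.00972) and 3.95 for Col4a2 (adjusted p = 0.000458). Of the 12 matrix substrates tested in macrophages, 2 were higher and 1 lower with age under saline, beside 1.16% of all genes. The lower one was fibronectin, Fn1, at -0.68 (adjusted p = 0.0103). The list medians were -0.19 with saline and -1.03 with ISRIB, against 0.00 and 0.01 over all genes.

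Averaged over treatments, the age effect in macrophages passed for 1 higher and 3 lower of 9 ADAM and ADAMTS genes, 1 higher and 2 lower of 11 activators and regulators, 3 higher and 1 lower of 16 cathepsins and cystatins, and 2 higher and 3 lower of 12 matrix substrates, beside 4.86% of all genes. The substrates were Col4a1 at 2.37 and Col4a2 at 2.90, and Vcan at -1.58 (adjusted p = 0.0404), Fn1 at -0.77 (adjusted p = 2.14e-05) and Lamc1 at -0.34 (adjusted p = 0.037). Furin, the convertase that removes the Mmp14 propeptide, was lower in old macrophages at -0.31 (adjusted p = 0.0222). Averaged over ages, ISRIB passed for 1 higher and 1 lower of the ADAM and ADAMTS genes, 0 higher and 2 lower of the activators and regulators, 1 higher of 4 collagen uptake receptors, and 0 of the cathepsins, the matrix substrates and the further metalloproteinases. Over all genes 0.830% passed for this averaged ISRIB effect. Thbs1 was lower with ISRIB at -1.30 (adjusted p = 0.0341), Rhbdf2 lower at -0.43 (adjusted p = 0.00509), Adam15 lower at -0.26 (adjusted p = 0.0444), Adam19 higher at 0.83 (adjusted p = 0.0296) and Mrc1 higher at 0.35 (adjusted p = 0.0341). In monocytes the averaged age effect passed for Adam19 at 0.77 (adjusted p = 0.0193) among the ADAM and ADAMTS genes and for Mmp25 at 2.43 (adjusted p = 0.0445) among the further metalloproteinases, and no listed gene passed in the other 6 monocyte contrasts. Over all genes 0.123% passed for the averaged age effect in monocytes.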

How the data were processed

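Sequencing reads were processed by the submitters with bcl2fastq 2.19.1, FastQC, Trimmomatic 0.36, STAR 2.6.0 and HTSeq 0.11.2 on mm10, per the submitters' processing notes. Neither the strand setting nor the annotation is given in the sources used here. The deposited values are whole-number counts per gene, without normalization. The labels' protocols name PicoPure RNA isolation, 3 ng of RNA and polyA selection. Gene symbols were matched for 42546 of 43430 identifiers (98.0%), and identifiers without a symbol held at most 0.133% of a library's counts.

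From these counts, genes were filtered with filterByExpr (minimum count 10, minimum total 15), scaled by TMM and tested with edgeR 4.0.16 (quasi-likelihood test, R 4.3.3), with Benjamini-Hochberg adjustment over all genes of a fit. The 19 macrophage libraries (12171 genes), the 20 monocyte libraries (12170 genes) and all 39 libraries together (13587 genes, for comparisons between cell types) were fitted separately, with 17 contrasts. A gene was called at an adjusted p under 0.05. The tests were checked on simulated data. CPM use library totals without TMM. Pairs of members were tested with scipy 1.17.1 and numpy 2.4.6 on log2 CPM (prior count 2).

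Alternatives were DESeq2 1.42.0 and its size factors, limma 3.58.1 (voom), no filter, a replicate block, 1 fit of all libraries and leaving out each library. All 76 pairs of libraries within groups differed by more than sampling noise (chi-square per degree of freedom 7.26 to 57.7). The labels give no sequencing batch. The members and gene lists were chosen with earlier results of these data known. All members are named, and from each pathway list up to 5 called genes per comparison, those with the largest change whose higher group averaged 5 CPM or more. Some genes that this rule selects are not reported here.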

Additional observations from a re-analysis of the deposited data

Results flagged for a closer look

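In 10 of 80 sets of libraries (each member in each group), 1 library stood apart from the others by Dixon's ratio. For normally distributed values chance flags about 1 in 20 such sets. Many of these sets lie near 0 counts, so that rate is not a fair standard for the 10 found. For Mmp13 in both ISRIB monocyte groups all other libraries held 0, which fixes the ratio at 1. In macrophages, old saline replicate 4 held 211 CPM of Mmp2, where the next library held 46.35 CPM, and the same library held 1.586 CPM of Timp3, where the next held 0.2821 CPM. Young ISRIB monocytes gave 4 such values: Mmp9 at 2.3 CPM in replicate 5, Mmp13 at 0.6546 CPM in replicate 1, Mmp14 at 7.507 CPM in replicate 3 and Timp3 at 0.8703 CPM in replicate 3. Old ISRIB monocytes gave the other 4: Mmp12 at 4.977 CPM and Mmp14 at 15.43 CPM, both in replicate 2, Mmp13 at 0.2296 CPM in replicate 1 and Timp1 at 1.573 CPM in replicate 4.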

How the results depend on the processing

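Counts of members called were compared with DESeq2's size factors, no filter on low counts, DESeq2, limma voom, a replicate block, 1 fit of all 39 libraries and each library left out. Without the filter, where far more genes entered the fit, 2 members were called for age with saline in macrophages, 2 for age with ISRIB, 3 for ISRIB in old macrophages, 1 for ISRIB in young macrophages and 7 for ISRIB averaged over ages, and 468, 405, 220, 224 and 640 of 22729 genes were called in these contrasts in the same order. With the filter 141, 114, 0, 0 and 101 of 12171 genes were called. DESeq2 called 1 for averaged ISRIB in macrophages (Timp1) and 1 for age with saline in monocytes (Mmp14). In limma voom 0 were called for age with saline and 0 for averaged age in macrophages. The same replicate numbers did not pair the libraries (median correlation of deviations 0.004 in macrophages and -0.014 in monocytes). With the replicate block 1 member was called for averaged age (Mmp2, with Mmp9 at an adjusted p of 0.0521) and 1 for averaged ISRIB (Mmp19, adjusted p = 0.0327). The fit of all 39 libraries called 1 for averaged age, with Mmp9 at 0.0524. Leaving out 1 library gave 0 to 1 for age with saline in macrophages, 1 to 2 for averaged age and 0 to 1 for averaged ISRIB. Averaged ISRIB gained Mmp19 without young ISRIB replicate 3 (adjusted p = 0.0373) and Timp1 without old saline replicate 3 (0.0461) or 5 (0.0402). The cause of these shifts was not tested. No called value changed sign. Depth limits Timp3 and, in monocytes, Mmp2, Mmp13 and Timp1, which lie near the worth of 3 counts.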
